A study of Homo sapiens with 12 samples.

Results

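The oxidative phosphorylation genes are the nuclear genes for the subunits of the respiratory chain (complexes I to IV) and of ATP synthase (complex V). They were taken by symbol from the authors' deposited table: symbols that begin with NDUFA, NDUFB, NDUFC, NDUFS or NDUFV and a digit, the SDH genes A to D, those beginning with UQCR or ATP5, CYC1, and those beginning with COX and a digit from 4 to 8. This gave 88 of 34602 gene symbols. By current RefSeq names and known roles, 80 of the 88 encode subunits. The other 8 were not counted as subunits. COX4NB (now EMC8, of the endoplasmic reticulum membrane complex) shares only the name. ATP5SL and ATP5S are now named DMAC2 and DMAC2L in RefSeq, and no verdict on their roles is given here. ATP5EP2 and COX6BP1 are pseudogenes, and UQCRHL is an intronless copy. NDUFA4L2 and COX7A2L are relatives of subunits. All 88 matched a RefSeq gene, 65 by current symbol and 23 by an older one. A few subunits fall outside the name rule, among them NDUFAB1 and genes listed under old symbols such as UCRC and USMG5.

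Complex I passes electrons from NADH to ubiquinone, and complex II, which is also the succinate dehydrogenase of the citric acid cycle, does so from succinate. Complex III hands them to cytochrome c and complex IV to oxygen, while complexes I, III and IV pump protons that drive ATP synthesis in complex V. Most catalytic centres of complexes I, III and IV sit on subunits encoded in mitochondrial DNA or on a small set of conserved nuclear subunits, and the many further nuclear subunits, called accessory, serve assembly and stability. mRNAs of these genes are known as abundant and long-lived in most tissues, and cancer lines differ in how far they rely on respiration or on glycolysis.

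The cells were MDA-MB-231, a human triple-negative breast cancer line. One line stably over-expressed tRNA-Glu (locus chr1.trna5, Glu-TTC), a second tRNA-Arg (locus chr16.trna1, Arg-CCG), and the control was a mock line. All lines received α-amanitin, an inhibitor of RNA polymerase II, at 10 µg/mL for 9 h or 0 h. Total RNA was hybridised to Illumina BeadChips, with 2 arrays for each line and time (tRNA-Glu 9 h and 0 h, tRNA-Arg 9 h and 0 h, mock 9 h and 0 h), 12 in all. Whether a line was 1 clone, and whether replicates were separate cultures, is not stated. The comparison asked whether a given mRNA outlasted the polymerase block better or worse in a tRNA line than in mock cells.

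Mean non-normalized intensity over 47231 probes ran from 497 to 525 on the 6 arrays at 9 h and from 533 to 606 on the 6 arrays at 0 h. In the authors' processed values, the log2 difference between the replicate arrays of a group had an SD over probes of 0.241 for tRNA-Glu at 0 h and of 0.187 to 0.213 for the other 5 groups. No table used here pairs the probes with genes, so the subunits were read from the authors' deposited table and not from single arrays. For each gene it holds a stability score for tRNA-Glu against control and one for tRNA-Arg against control. A positive score was read from the header as more stable in the tRNA line. The formula and log base of the score are not stated, so no score is turned into a fold change here. The score has no replicate values, error or p-value, so every statement on it below is a description, and none was tested. The mock line is the control of both scores, so the 2 scores of a gene are not independent.

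For scale, the SD of all scores in the authors' deposited table was 0.135 for tRNA-Glu and 0.0846 for tRNA-Arg, a ratio of 1.59. The stability differences computed per probe from the authors' processed values (log2, the 9 h minus 0 h change of a tRNA line minus that of mock cells) had SDs of 0.272 for tRNA-Glu and 0.213 for tRNA-Arg, a ratio of 1.27. With tRNA-Glu 0 h replicate 1 left out that ratio was 1.21, and with replicate 2 of the same group left out it was 1.55. With single arrays of the other groups left out it ran from 1.12 (tRNA-Arg 9 h replicate 1) to 1.39 (tRNA-Glu 9 h replicate 1). A score of a given size is therefore less extreme for tRNA-Glu than for tRNA-Arg. How much the 2 arrays of tRNA-Glu at 0 h add to any single score was not tested.

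The scores of the oxidative phosphorylation genes centred near 0 in both lines, with a larger share in the highest 5% than among all genes. How large the share in either tail was depended on the genes compared, as given below. Their median score in the authors' deposited table was 0.0276 for tRNA-Glu (mean 0.0429), against a median of 0.00489 over all genes. For tRNA-Arg the median was 0.0130 (mean 0.0233), against 0.00166 over all genes in the authors' deposited table. Scores above 0 were held by 52 of 88 for tRNA-Glu, or 59.1%, where 52.8% of all genes in the authors' deposited table were above 0. The count for tRNA-Arg was 46 of 88, or 52.3%, against 51.0% of all genes in the authors' deposited table. The highest 5% of all scores (above 0.203 for tRNA-Glu and above 0.132 for tRNA-Arg) held 19 of the 88 genes in each line, or 21.6%, in the authors' deposited table. The lowest 5% (below -0.192 and below -0.127) held 7 of 88 for tRNA-Glu (7.95%) and 8 of 88 for tRNA-Arg (9.09%) per the authors' deposited table. Most symbols in that table need not be expressed in these cells, and it holds no expression level, so the tails cannot be set against genes of like abundance. A second set is therefore shown beside it. It holds 86 genes from lists for mitochondrial assembly, carriers, the citric acid cycle and mitochondrial DNA expression, the subunit NDUFAB1 among them. Of these, 13 and 14 genes (15.1% and 16.3%) were in the highest 5% for tRNA-Glu and tRNA-Arg in the authors' deposited table. Against the tails of those 86 genes in place of all genes, 7 and 5 of the 88 were in the highest 5% for tRNA-Glu and tRNA-Arg, with 1 and 7 at the low end, in the authors' deposited table. With placeholder-named loci left out of all genes, 3 and 5 of the 88 were in the lowest 5% for tRNA-Glu and tRNA-Arg per the authors' deposited table. For tRNA-Glu an excess at the low end thus appeared against all genes but not against either other background. For tRNA-Arg more than 5% of the 88 lay there against each background, only slightly more with placeholder-named loci left out. In the highest 5% of that background were 13 and 15 of the 88.

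**Figure D1:**
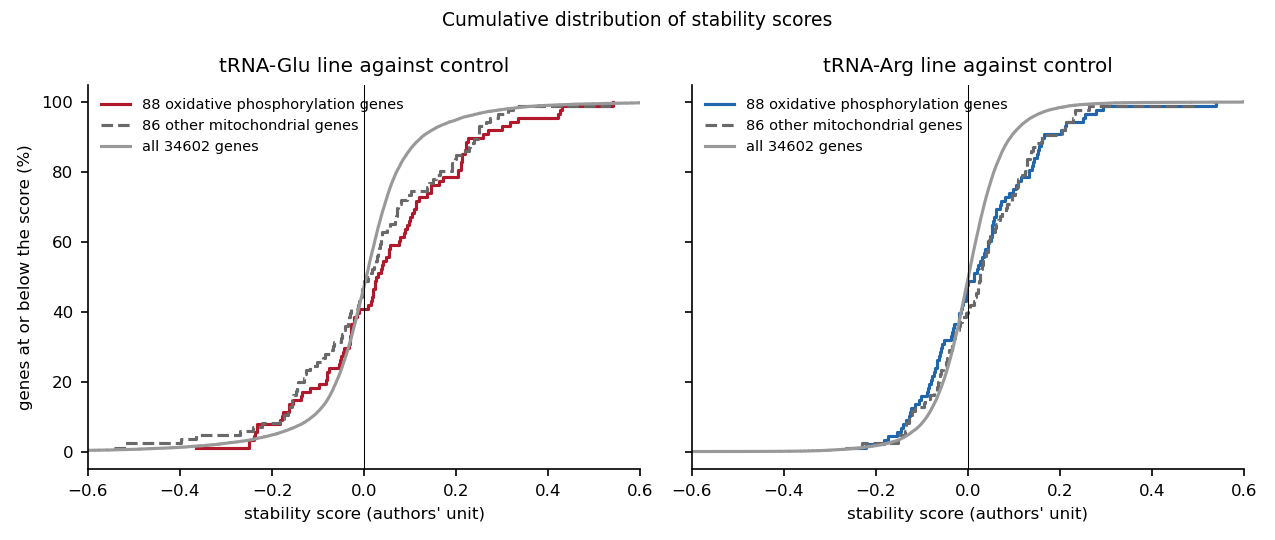
Cumulative share of genes (vertical axis, %) at or below each stability score (horizontal axis, authors' unit) for the 88 oxidative phosphorylation genes (coloured), 86 other mitochondrial genes (dashed) and all 34602 genes (grey), with tRNA-Glu left and tRNA-Arg right. Both mitochondrial curves are less steep around 0 than that of all genes, and the 88 genes reach 0.542 and 0.539 at the top.

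The highest subunit in both lines was ATP5E, the epsilon subunit of the ATP synthase central stalk, at 0.542 for tRNA-Glu and 0.539 for tRNA-Arg per the authors' deposited table. Above the central 95% of all scores (-0.294 to 0.283 for tRNA-Glu) lay 7 of the 88 genes: ATP5E, COX6C, UQCRH, COX7B2, UQCRB, COX7C and NDUFA8. Only SDHA, the flavoprotein of succinate dehydrogenase, lay below that range, at -0.365 for tRNA-Glu per the authors' deposited table. For tRNA-Arg (-0.171 to 0.172) there were 8 above, namely ATP5E, SDHC, COX7B2, UQCRHL, NDUFB6, NDUFB9, COX4NB and COX7C, and 4 below, namely NDUFA3, NDUFS8, COX6A1 and UQCRQ. The 7 at the top for tRNA-Glu all encode subunits that carry no redox centre, as most subunit genes of the set do.

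**Figure D2:**
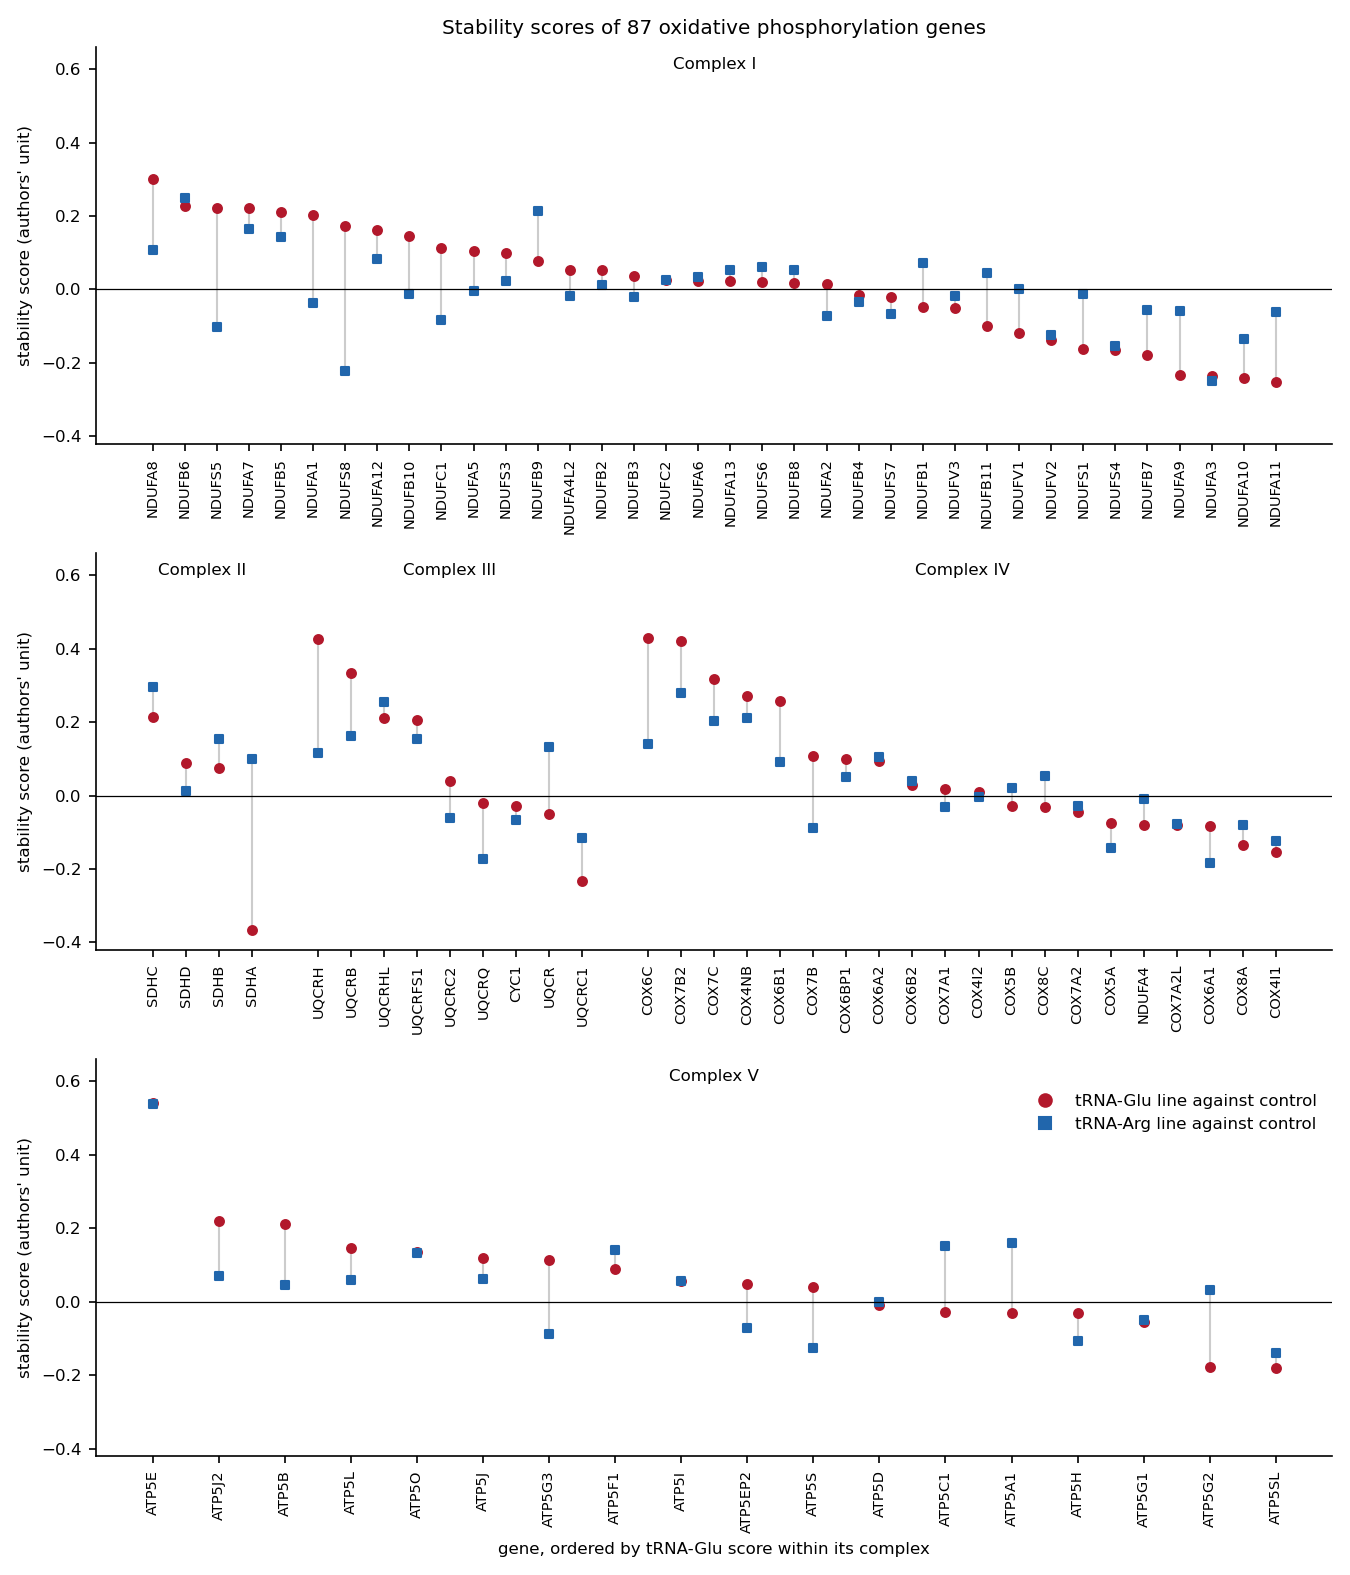
Stability score (vertical axis, authors' unit) of 87 of the 88 genes for tRNA-Glu (red circles) and tRNA-Arg (blue squares), joined by a grey line, with genes ordered by tRNA-Glu score within complexes I to V. ATP5E stands highest in both lines and SDHA has the widest gap, -0.365 against 0.0995.

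The first transcribed bases of some genes near either end are shown because they are the sequence nearest to the mRNA that the reference held, and because a C followed by further pyrimidines at the start is the mark of the TOP class of mRNAs, whose stability and translation are known to be regulated together. Each line gives 20 bases before and 10 from the annotated gene start (RefSeq, GRCh38.p14, gene strand, 5′ to 3′), and capitals mark an unbroken run of C and T that begins with C at the start and is at least 5 bases long. The first 5 genes are high scorers for tRNA-Glu, 3 with such a run and 2 without. The last 4 scored below 0 for tRNA-Glu, 1 with such a run and 3 without. The genes were picked for display, so these counts are no comparison. COX6C and UQCRB, also high, had no promoter entry used here. ATP5G2, at -0.177, was not in the lowest 5%. NDUFA10, NDUFA3, NDUFA9, ATP5SL and NDUFB7 scored lower, have no such run and are not shown.
ATP5E (chr20:59032326-59032355, minus strand): ttccgcttctgtggtctgatCTTCCTgcgg
UQCRH (chr1:46303678-46303707, plus strand): ctgagtgacccttacaagtcCTTCTTgatc
COX7C (chr5:86617921-86617950, plus strand): ccgccccatttcccatctttCTTTTCagtc
COX7B2 (chr4:46909236-46909265, minus strand): tcacaggaagtacctgttttacccgacccc
NDUFA8 (chr9:122159770-122159799, minus strand): ctgcgtgttgccggatgcgcatgcgcaggc
ATP5G2 (chr12:53676074-53676103, minus strand): tcgctcttcccgctgctccgCCCCTCTCTg
SDHA (chr5:218300-218329, plus strand): tgcgcaggcgcagtctgcgcagggactggc
UQCRC1 (chr3:48609637-48609666, minus strand): ccagtctacgcttgcgcggcgcaacagggc
NDUFA11 (chr19:5903781-5903810, minus strand): ggttgcgcgcgcagcccgagaagtctcgcg

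Of the 69 oxidative phosphorylation genes with a promoter entry in RefSeq, 9 had such a start, or 13.0%, against 4.60% of 15843 protein-coding promoters. They were ATP5E, UQCRH, COX7C, ATP5L, ATP5O, NDUFC1, COX7A2L, COX4I1 and ATP5G2. Their median score in the authors' deposited table was 0.136 for tRNA-Glu and 0.0575 for tRNA-Arg, against 4.67e-05 and -0.00160 for the other 60. The 9 were not alike: COX4I1, the largest nuclear subunit of complex IV, had -0.154 and -0.125 in the authors' deposited table, and ATP5G2 had -0.177 and 0.0313. In the table at large, genes with such a start had medians near 0. The 675 genes of the authors' deposited table that have it had a median of -0.00248 for tRNA-Glu and -0.00266 for tRNA-Arg, against -0.000546 and -0.00351 for 13601 genes without it. With the oxidative phosphorylation and ribosomal protein genes left out, 622 genes with the start remained, with medians of -0.00707 and -0.00535. Above 0 were 293 of the 622 for tRNA-Glu and 292 for tRNA-Arg, against 331 and 327 of the 675. The highest tRNA-Glu score was 0.589 in the 622 and 1.14 in the 675. Ribosomal protein genes with the start were not described apart here. The start was chosen for display after the scores were known, and annotated starts may differ from those used in these cells.

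**Figure D3:**
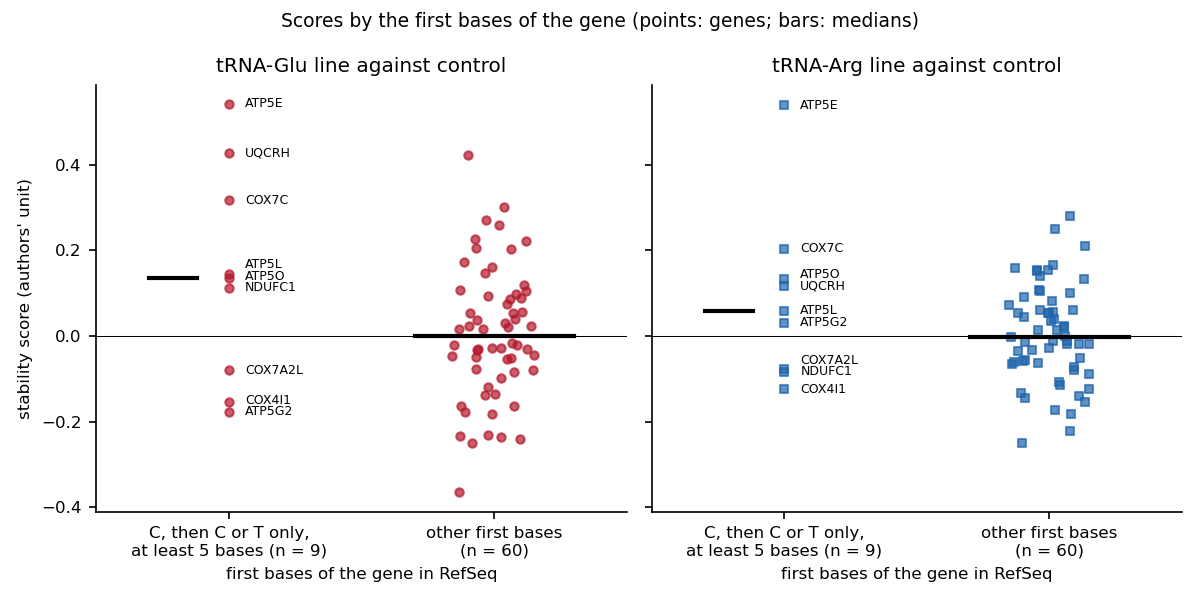
Stability score (vertical axis, authors' unit) of the 9 genes whose annotated start is C followed by pyrimidines only (named, left in each panel) and of 60 others (right, spread sideways for legibility), for tRNA-Glu and tRNA-Arg, with bars at the medians. ATP5E, UQCRH and COX7C top the 9 for tRNA-Glu, where COX7A2L, COX4I1 and ATP5G2 lie below 0.

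Complex I had 37 genes, 36 of them subunits, and no common direction. Its median in the authors' deposited table was 0.0235 for tRNA-Glu, with 22 of 37 above 0, and -0.0115 for tRNA-Arg, with 16 of 37 above 0. The tails held 6 genes in the highest 5% and 5 in the lowest 5% for tRNA-Glu, and 4 and 4 for tRNA-Arg, per the authors' deposited table. The 7 core subunits, which carry the flavin and the iron-sulfur clusters that lead electrons from NADH to ubiquinone, were mostly below 0. They had medians of -0.118 for tRNA-Glu and -0.0135 for tRNA-Arg per the authors' deposited table, with 2 of 7 above 0 in each line. The 29 accessory subunits had medians of 0.0242 and -0.00333 in the authors' deposited table, with 19 and 14 above 0.

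In the core, the largest iron-sulfur subunit, NDUFS1, had -0.163 for tRNA-Glu and -0.0135 for tRNA-Arg, and NDUFV2 had -0.138 and -0.124 in the authors' deposited table. NDUFV1, which binds NADH and the flavin, had -0.118 for tRNA-Glu and 0.000127 for tRNA-Arg per the authors' deposited table. These 3 are below 0 for tRNA-Glu, but their tRNA-Arg scores range from near 0 to NDUFV2's. NDUFS7 lay nearer to 0, at -0.0217 for tRNA-Glu and -0.0663 for tRNA-Arg per the authors' deposited table. NDUFS3 and NDUFS8, both of the arm toward ubiquinone, scored above 0 for tRNA-Glu at 0.0989 and 0.172 in the authors' deposited table. NDUFS8 was also among the lowest of all 88 genes for tRNA-Arg, at -0.221 in the authors' deposited table, while NDUFS3 had 0.0230.

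Among accessory subunits the highest tRNA-Glu score was that of NDUFA8, at 0.300 and 0.108 for tRNA-Arg per the authors' deposited table. NDUFA8, NDUFS5, NDUFB10 and NDUFB7 belong to the proteins with paired cysteine motifs that fold in the intermembrane space. NDUFS5 had 0.222 for tRNA-Glu and -0.102 for tRNA-Arg, NDUFB10 had 0.146 and -0.0115, and NDUFB7 had -0.178 and -0.0550, all in the authors' deposited table. So these 4 share a fold and an import route but not a score. NDUFB6 and NDUFB5, of the membrane arm, scored above 0 in both lines: 0.227 and 0.250 for NDUFB6, and 0.211 and 0.144 for NDUFB5, in the authors' deposited table. NDUFA7 had 0.222 for tRNA-Glu and 0.166 for tRNA-Arg per the authors' deposited table. NDUFB9 had a high score for tRNA-Arg only, with 0.0772 for tRNA-Glu and 0.213 for tRNA-Arg per the authors' deposited table. NDUFA1, a small subunit needed for assembly of the membrane arm, had 0.203 and -0.0362 in the authors' deposited table.

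At the low end, NDUFA11 had -0.251 for tRNA-Glu and -0.0612 for tRNA-Arg per the authors' deposited table. The scores of NDUFA10, the largest accessory subunit of the membrane arm, were -0.240 and -0.134 in the authors' deposited table. NDUFA3 had -0.237 for tRNA-Glu and, at -0.250, the lowest tRNA-Arg score of the 88 genes in the authors' deposited table. NDUFA9, which sits at the joint of both arms, had -0.232 and -0.0576 in the authors' deposited table. For NDUFS4, a subunit often mutated in Leigh syndrome, the values were -0.164 and -0.154 in the authors' deposited table. NDUFA3, NDUFA10 and NDUFS4 were in the lowest 5% for tRNA-Arg, and NDUFA11 and NDUFA9 were not. The remaining 15 accessory subunits not named here had scores between -0.0984 (NDUFB11) and 0.162 (NDUFA12) for tRNA-Glu, and between -0.0836 (NDUFC1) and 0.0821 (NDUFA12) for tRNA-Arg, per the authors' deposited table. NDUFA4L2, a relative of NDUFA4 known as a hypoxia target, had 0.0541 and -0.0184 in the authors' deposited table. It is now named COXFA4L2 in RefSeq and was counted with complex I by its older symbol only.

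Complex II is the smallest, with 4 genes, all encoded in the nucleus. SDHA, which oxidises succinate, had -0.365 for tRNA-Glu and 0.0995 for tRNA-Arg per the authors' deposited table. SDHB, the iron-sulfur subunit that takes electrons from SDHA, had 0.0757 for tRNA-Glu and 0.155 for tRNA-Arg per the authors' deposited table. SDHA was thus the one gene of the complex below 0 for tRNA-Glu, and no gene of it was below 0 for tRNA-Arg. SDHC, a membrane anchor that helps form the ubiquinone site, had 0.214 and 0.295, and the other anchor SDHD had 0.0874 and 0.0128, in the authors' deposited table. The tRNA-Arg score of SDHC was the second highest of the 88 genes. The median of the complex was 0.0816 for tRNA-Glu and 0.127 for tRNA-Arg per the authors' deposited table. SDHA, SDHC and SDHD have 4, 5 and 7 pseudogenes under their symbols in RefSeq, and whether the probes separate them is not known here.

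Complex III had 9 genes, with a median of 0.0386 for tRNA-Glu and 0.116 for tRNA-Arg per the authors' deposited table. In each line of the authors' deposited table, 4 of the 9 were in the highest 5% of all scores and 1 in the lowest. The redox subunits differed: UQCRFS1, the Rieske iron-sulfur protein, had 0.205 and 0.153, and CYC1, cytochrome c1, had -0.0287 and -0.0669, in the authors' deposited table. UQCRC1 and UQCRC2 form the pair of large core proteins on the matrix side and bear no redox centre. UQCRC1 had -0.234 for tRNA-Glu and -0.114 for tRNA-Arg, and UQCRC2 had 0.0386 and -0.0625, in the authors' deposited table. The small subunits spread most. UQCRH, the acidic hinge protein that helps cytochrome c1 meet cytochrome c, had 0.427 for tRNA-Glu and 0.116 for tRNA-Arg per the authors' deposited table. UQCRB, which takes part in ubiquinone binding, had 0.334 and 0.162 in the authors' deposited table. UQCRQ had -0.0209 and -0.174, and UQCR (now UQCR11) had -0.0502 and 0.132, in the authors' deposited table. Of these 4, UQCRH and UQCRB were high for tRNA-Glu and UQCRQ was low for tRNA-Arg. UQCRHL, an intronless copy of UQCRH, had 0.211 and 0.256 in the authors' deposited table, and a probe may not tell the pair apart.

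Complex IV had 20 genes, counting NDUFA4, which is now named COXFA4 in RefSeq and found in this complex. The median in the authors' deposited table was 0.0144 for tRNA-Glu and 0.00895 for tRNA-Arg. In the highest 5% were 5 genes for tRNA-Glu and 4 for tRNA-Arg, and in the lowest 5% were 0 and 2, in the authors' deposited table. With NDUFA4 counted in complex I instead, the tRNA-Arg median of complex IV was 0.0208 per the authors' deposited table. All its catalytic subunits are encoded in mitochondrial DNA, so the 17 genes here that encode subunits are accessory. The 11 subunits of general expression split: COX6C, COX7C, COX6B1 and COX7B scored above 0 for tRNA-Glu, and the other 7 below. COX6C had 0.429 for tRNA-Glu and 0.141 for tRNA-Arg, and COX7C had 0.317 and 0.204, in the authors' deposited table. COX6B1, which joins the monomers of the dimer on the cytochrome c side, had 0.258 and 0.0901 in the authors' deposited table. COX7B had 0.108 for tRNA-Glu but -0.0885 for tRNA-Arg per the authors' deposited table.

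Below 0 in both lines were COX4I1 and COX5A, the first subunits that join the catalytic core protein during assembly. COX4I1 had -0.154 for tRNA-Glu and -0.125 for tRNA-Arg, and COX5A had -0.0761 and -0.144, in the authors' deposited table. COX6A1 had -0.0835 and -0.183, and COX8A had -0.135 and -0.0800, in the authors' deposited table. COX7A2 had -0.0443 and -0.0288, COX5B had -0.0279 and 0.0208, and NDUFA4 had -0.0799 and -0.0108, in the authors' deposited table. The 11 had a median of -0.0443 for tRNA-Glu and -0.0288 for tRNA-Arg per the authors' deposited table, with 4 above 0 in each line.

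Isoforms known from single tissues were also read apart within complex IV. COX6A2 and COX7A1 are the heart and muscle forms, COX4I2 a form of lung, and COX6B2, COX7B2 and COX8C are forms of testis. Of the 6, COX7B2 stood apart, at 0.422 for tRNA-Glu and 0.280 for tRNA-Arg per the authors' deposited table. COX6A2 had 0.0929 and 0.105, and the other 4 lay between -0.0301 and 0.0295 for tRNA-Glu and between -0.0324 and 0.0528 for tRNA-Arg, per the authors' deposited table. Whether any of the 6 is expressed in these cells was not tested, since the authors' deposited table holds no level. Of the 3 genes that are not subunits, COX4NB had 0.270 and 0.211, COX7A2L, which helps join complexes III and IV, had -0.0805 and -0.0765, and the pseudogene COX6BP1 had 0.0990 and 0.0507, in the authors' deposited table.

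Complex V had 18 genes, 15 of them subunits, and the highest share above 0 for tRNA-Arg among the complexes other than II. Scores above 0 were held by 11 of 18 genes in each line of the authors' deposited table, with medians of 0.0522 for tRNA-Glu and 0.0499 for tRNA-Arg. In the highest 5% were 3 genes for tRNA-Glu and 5 for tRNA-Arg, and in the lowest 5% were 0 and 1, in the authors' deposited table. The F1 head makes ATP on the beta subunits, ATP5B, held between alpha subunits, ATP5A1, around a central stalk of gamma (ATP5C1), delta (ATP5D) and epsilon (ATP5E). ATP5B had 0.212 for tRNA-Glu and 0.0444 for tRNA-Arg per the authors' deposited table. Its partner ATP5A1 had -0.0299 and 0.159, and ATP5C1 had -0.0282 and 0.152, in the authors' deposited table. The alpha and gamma genes were thus near 0 for tRNA-Glu and in the highest 5% for tRNA-Arg, and the beta gene was in the highest 5% for tRNA-Glu and nearer the middle for tRNA-Arg; these differences between lines were not tested. ATP5D had -0.0101 and -0.00155 in the authors' deposited table, far from ATP5E of the same stalk. ATP5EP2, a pseudogene of ATP5E, had 0.0486 and -0.0715 in the authors' deposited table.

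The peripheral stalk keeps the head from turning with the rotor. Its genes ATP5O, ATP5F1 and ATP5J had tRNA-Glu scores of 0.136, 0.0884 and 0.120 and tRNA-Arg scores of 0.133, 0.139 and 0.0617 in the authors' deposited table. Only ATP5H of the stalk was below 0, at -0.0321 and -0.107 in the authors' deposited table. In the membrane part, ATP5J2, ATP5L and ATP5I (subunits f, g and e) had 0.220, 0.146 and 0.0557 for tRNA-Glu and 0.0702, 0.0575 and 0.0554 for tRNA-Arg per the authors' deposited table. All 3 of them were above 0 in both lines. ATP5G1, ATP5G2 and ATP5G3 encode the same mature c subunit of the proton-driven rotor behind different import signals. They had -0.0547, -0.177 and 0.113 for tRNA-Glu and -0.0514, 0.0313 and -0.0872 for tRNA-Arg per the authors' deposited table. No single direction held for these 3 genes in either line. ATP5SL and ATP5S, not counted as subunits, had -0.182 and 0.0406 for tRNA-Glu and -0.141 and -0.127 for tRNA-Arg per the authors' deposited table.

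**Figure D4:**
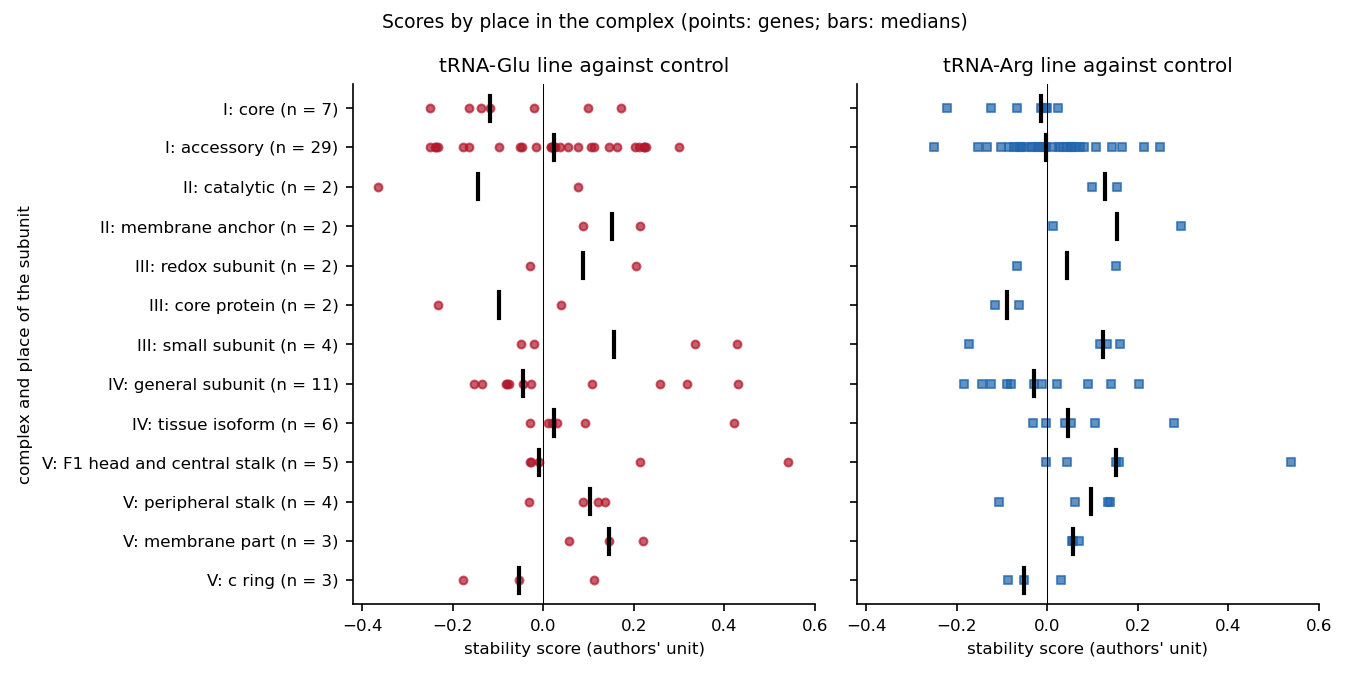
Stability score (horizontal axis, authors' unit) of the subunits by complex and place in it (rows), for tRNA-Glu (left) and tRNA-Arg (right), with 1 point per gene and a black bar at the median of the row. The 7 core subunits of complex I have a median of -0.118 for tRNA-Glu, against 0.0242 for its 29 accessory subunits.

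Promoters of these genes are known to hold sites for the nuclear respiratory factor NRF1, and they are shown for what the set shares beyond its name. The letters GCGCNTGCG, on either strand, were in 21 of 69 promoters of oxidative phosphorylation genes (250 bases before to 50 after the RefSeq start), or 30.4%, against 11.0% of 15843 protein-coding promoters. Capitals mark the match, with 10 bases on each side (GRCh38.p14, gene strand, 5′ to 3′).
SDHD (chr11:112086753-112086781, plus strand): agctgtgtttGCGCATGCGcgacgggtgt
NDUFB4 (chr3:120596167-120596195, plus strand): agagcacttcGCGCATGCGcatatcaccg
ATP5C1 (chr10:7788145-7788173, plus strand): gggagcttcgGCGCATGCGcgctgaggcc

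The ETS letters CCGGAAG were in 20 of the 69, or 29.0%, against 14.2% of all, and the YY1 letters AAGATGGCG in 8, or 11.6%, against 2.74%. The ERR letters AAGGTCA were also in 8 of the 69, against 3.13% of all, while CCAAT was in 23, or 33.3%, against 36.4%. All were searched on both strands, matches may overlap, and a match is not a bound site. Genes with the NRF1 letters had a median score of -0.0217 for tRNA-Glu and 0.0528 for tRNA-Arg, against 0.0265 and -0.0111 for genes without them, in the authors' deposited table. The same letters were present in SDHA, low for tRNA-Glu, and in UQCRFS1, high in both lines.

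Many of these genes have processed copies, which a probe may not tell from the parent mRNA. In RefSeq 48 of the 88 have at least 1 pseudogene under their own symbol, with 18 for COX6C as the highest number. Those 48 had medians of 0.0647 for tRNA-Glu and 0.0530 for tRNA-Arg, against 0.0213 and -0.0184 for the 40 without, in the authors' deposited table. Across the 88 genes the rank correlation (Spearman) of the score with the number of pseudogenes was 0.171 for tRNA-Glu and 0.202 for tRNA-Arg, a weak relation over genes that share arrays.

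Other genes of the pathway were read from 4 lists. For 30 of 50 assembly factors that the authors' deposited table lists, the median was 0.0211 for tRNA-Glu and 0.0384 for tRNA-Arg, with 16 and 18 above 0. NUBPL, which delivers iron-sulfur clusters to complex I, had 0.532 for tRNA-Glu and 0.211 for tRNA-Arg per the authors' deposited table. TMEM126B and NDUFAF2, both assembly factors of complex I, were high in both lines. Their scores were 0.292 and 0.239 for tRNA-Glu and 0.228 and 0.264 for tRNA-Arg per the authors' deposited table. UQCC, of complex III, had -0.270 for tRNA-Glu and -0.133 for tRNA-Arg per the authors' deposited table. The citric acid cycle list of 17 genes also held PDHA1, PDHB and DLAT, which encode parts of pyruvate dehydrogenase. Its medians were 0.0217 for tRNA-Glu and 0.000433 for tRNA-Arg, with 9 above 0 in each line, in the authors' deposited table. IDH2, the mitochondrial NADP-dependent isocitrate dehydrogenase, had -0.521, citrate synthase CS -0.221 and fumarase FH 0.250 for tRNA-Glu per the authors' deposited table. In that list 3 of 17 were in the lowest 5% for tRNA-Glu. SDHA, of the cycle but not of the list, lay there as well.

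The list of 19 genes for electron carriers and ADP/ATP exchange also held genes of ubiquinone synthesis (the COQ genes, PDSS1 and PDSS2). SLC25A3, ATPIF1 and the subunit NDUFAB1 were in it too. Its medians were 0.0157 for tRNA-Glu and 0.0173 for tRNA-Arg per the authors' deposited table, with 10 and 11 above 0. ETFA, of the electron transfer flavoprotein, had 0.324 for tRNA-Glu, and COQ9, needed for ubiquinone synthesis, had -0.366 and -0.267 in the authors' deposited table. Genes of mitochondrial DNA expression and biogenesis (20 of 21 listed) had medians of -0.00310 for tRNA-Glu and 0.0316 for tRNA-Arg per the authors' deposited table, with 9 and 14 above 0. TFAM, which packs and transcribes mitochondrial DNA, had 0.273 for tRNA-Glu and 0.491 for tRNA-Arg, and the elongation factor TSFM had -0.543 and -0.229, in the authors' deposited table. Of the 30 assembly factors, 5 and 6 were in the highest 5% for tRNA-Glu and tRNA-Arg, with 3 and 2 of the 19 in the carrier list. The citric acid cycle list had 2 and 1 of 17 there, and the mitochondrial DNA genes 3 and 5 of 20, per the authors' deposited table. In the lowest 5% were 1 and 2 assembly factors and 1 and 2 of the carrier list. The citric acid cycle list had 3 and 2 there, and the mitochondrial DNA genes 2 and 2, per the authors' deposited table.

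**Figure D5:**
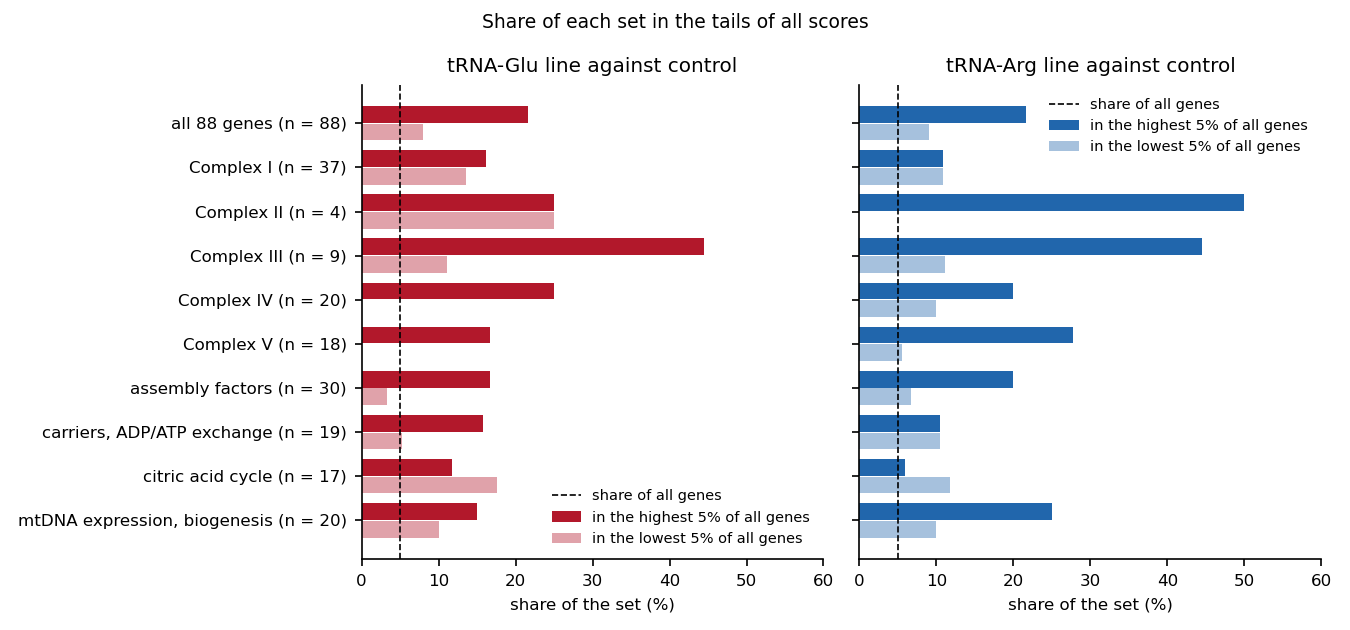
Share of each gene set (horizontal axis, %) in the highest 5% (dark bars) and lowest 5% (light bars) of all scores, for all 88 genes, complexes I to V and 4 lists of other mitochondrial genes, with tRNA-Glu left and tRNA-Arg right and a dashed line at the share of all genes. All 88 genes reach 21.6% in the highest tail in both panels, and no gene of complexes IV or V is in the lowest tail for tRNA-Glu.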

How the data were processed

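The authors' deposited table gives a stability score per gene symbol for each tRNA line against control, per the file headers; its formula, scale and replicate handling are not stated. Non-normalized probe intensity was deposited by the authors for 12 arrays, and the deposited processed intensity has nearly equal medians between arrays. The submitters' processing notes name lumi, without a step. The 12 detection columns are headed by chip position, match no sample and were not used.

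Genes were chosen by symbol. Each set is described by its median, its count above 0 and its count in the highest and lowest 5% of all 34602 scores, with no test. The text names, per complex and line, up to 4 genes at each end, all of complex II and all outside the central 95%, plus other genes for their roles; values of 2 genes are not reported here. Members, lists and places in the complexes were chosen with earlier results of these data known. The planned moderated linear model on array probes was not run, since no table used here pairs probes with genes, and markers of the cell line were not checked for that reason. The counting was checked on simulated scores. Python 3.11.15, pandas 2.3.3 and numpy 2.4.6 were used. Promoter sequences come from RefSeq (GRCh38.p14); 19 of 88 genes had no entry used here.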

Additional observations from a re-analysis of the deposited data

How the results depend on the processing

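All values here rest on the authors' deposited table, whose scores carry no replicates. No paired analysis was possible because the scores come without sample values and no table used here pairs the array probes with genes; for the same reason the alternatives planned for the arrays (background, normalization, filter, weights, offset, left-out arrays) were not run. With the 80 subunits only, the median was 0.0239 for tRNA-Glu and 0.0170 for tRNA-Arg, against 0.0276 and 0.0130 for all 88 genes. The means of the 88 were 0.0429 and 0.0233. Against the tails of genes without placeholder names, 3 genes in place of 7 were in the lowest 5% for tRNA-Glu and 5 in place of 8 for tRNA-Arg. Against the tails of the 86 genes of the other mitochondrial lists, a background chosen after seeing the data, 7 in place of 19 were in the highest 5% for tRNA-Glu and 5 in place of 19 for tRNA-Arg, with 1 in place of 7 in the lowest 5% for tRNA-Glu. The other counts tried lay between 13 and 17 for the highest 5% and were 7 for the lowest 5%, with 46 and 43 subunits above 0 for tRNA-Glu and tRNA-Arg. With NDUFA4 counted in complex I, the median of complex I was 0.0217 for tRNA-Glu and -0.0111 for tRNA-Arg, and that of complex IV 0.0191 and 0.0208, against 0.0144 and 0.00895 as reported. No gene was listed under both an older and a newer symbol.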
